A study of Arabidopsis thaliana with 8 samples.

Results

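The 31 genes described here are those whose RNA was lower in the cold and higher in salt in Arabidopsis thaliana. A nuclear locus was a member when its level was lower by at least 1 on the log2 scale at 4 °C than at 20 °C and higher by at least 1 with NaCl than on GM medium, in both lsm8-1 and Col-0. Levels are counts scaled to a library of 1e6 reads (CPM), taken on the log2(CPM + 1) scale, and a locus had to reach 5 CPM in at least 1 library of each experiment. Of 26547 loci with any read, 12179 nuclear loci met that floor, and the 31 members are 0.255% of them. At 4 °C, 814 loci (6.68%) were lower by the rule in both genotypes, and with NaCl 782 loci (6.42%) were higher in both. The members are therefore 3.81% of the loci lower at 4 °C and 3.96% of the loci higher with NaCl. These measured values chose the members, so their cold and salt differences are given as a description and carry no test. The opposite combination, higher at 4 °C and lower with NaCl, was met by 19 loci, while 311 loci were higher in both stresses and 163 were lower in both.

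Cold and high salt both limit the water available to plant cells, and abscisic acid (ABA) and calcium signals are known to act in the response to each. Cold also slows enzymes and growth, and acts in part through CBF transcription factors that bind the CCGAC core of promoters. Salt adds the toxicity of sodium ions, against which CIPK kinases with their CBL calcium sensors adjust ion transport. Many stress genes are therefore known to respond to both treatments alike, and ABA-responsive genes are the best known of them.

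The lsm8-1 groups carry a mutation of LSM8, the subunit specific to the nuclear LSM2-8 ring that binds U6 small nuclear RNA, and the Col-0 groups are the wild type of the same accession. In the cold experiment, plants in soil were given 24 h at 4 °C with the light lowered to 40 µmol m-2 s-1, or stayed at 20 °C with 90 µmol m-2 s-1. For salt, plants raised on 0.5X GM plates were moved for 10 h to plates with 150 mM NaCl, or stayed on GM, with the light at 90 µmol m-2 s-1 for both. All were 2 weeks old, grew in long days and are labelled as leaf material. Whether the GM plants were also moved, whether plants were pooled, and if the strand of the RNA was kept is not stated in the labels. The light level differed together with the temperature, so that cold and lower light cannot be told apart.

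Each of the 8 groups had 1 library, which leaves no replicate check of any difference between 2 libraries. Library totals lay between 33.4 M and 45.9 M reads (M, 1e6 reads), so 1 read was worth 0.0218 to 0.0299 CPM and a count of 0 allows a level of up to 0.0654 to 0.0897 CPM (3 counts). Intervals and this limit cover counting error only. LSM8 itself had 17.9 CPM in lsm8-1 and 39.6 CPM in Col-0 at 4 °C, 4.49 CPM in lsm8-1 and 13.1 CPM in Col-0 at 20 °C, 0.852 CPM in lsm8-1 and 6.13 CPM in Col-0 with NaCl and 1.52 CPM in lsm8-1 and 8.04 CPM in Col-0 on GM, and was lower in the lsm8-1 library of all 4 pairs. The 10 root markers summed to 42.8 CPM in lsm8-1 and 42.2 CPM in Col-0 at 4 °C and to 77.6 CPM in lsm8-1 and 110 CPM in Col-0 at 20 °C, where 1 of 10 reached 5 CPM in each library and 3 to 6 had no read. On plates they summed to 2237 CPM in lsm8-1 and 3127 CPM in Col-0 with NaCl and to 4637 CPM in lsm8-1 and 7822 CPM in Col-0 on GM, where 8 to 10 reached 5 CPM and none was at 0. The 6 leaf markers, all above 5 CPM in all 8 libraries, summed to 39312 CPM in lsm8-1 and 42172 CPM in Col-0 at 4 °C and to 57507 CPM in lsm8-1 and 59571 CPM in Col-0 at 20 °C. With NaCl they summed to 6279 CPM in lsm8-1 and 5722 CPM in Col-0, and on GM to 12054 CPM in lsm8-1 and 9369 CPM in Col-0. The sums hide that leaf markers went both ways in salt. By 1 or more on the log2 scale in both genotypes, 4 were lower with NaCl and 2 higher, LHCB2.1 among the higher. Root markers were thus far higher on plates than in soil, although all 8 libraries are labelled leaf, and their part in the results was not tested. In such bulk samples fewer cells of a type and less RNA per cell cannot be told apart.

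Among the members, the size of the differences varied widely. The 4 °C minus 20 °C difference ran between -3.33 and -1.11 in lsm8-1 (median -1.59) and between -3.33 and -1.11 in Col-0 (median -1.90), against medians over all 12179 loci of 0.030 in lsm8-1 and 0.11 in Col-0. With NaCl the difference from GM ran between 1.06 and 3.66 in lsm8-1 (median 1.92) and between 1.03 and 3.13 in Col-0 (median 1.86), against 0.013 in lsm8-1 and 0.031 in Col-0 over all loci. The score of a member is the smallest of its 4 differences in size. It was 2 or more in 3 members and 1.5 or more in 10, and it was highest in HSPRO2 (2.64), AT1G62510 (2.23) and AT5G02230 (2.14). In 8 members the salt difference was the larger in both genotypes, and in 9 the cold difference was the larger in both.

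**Figure D1:**
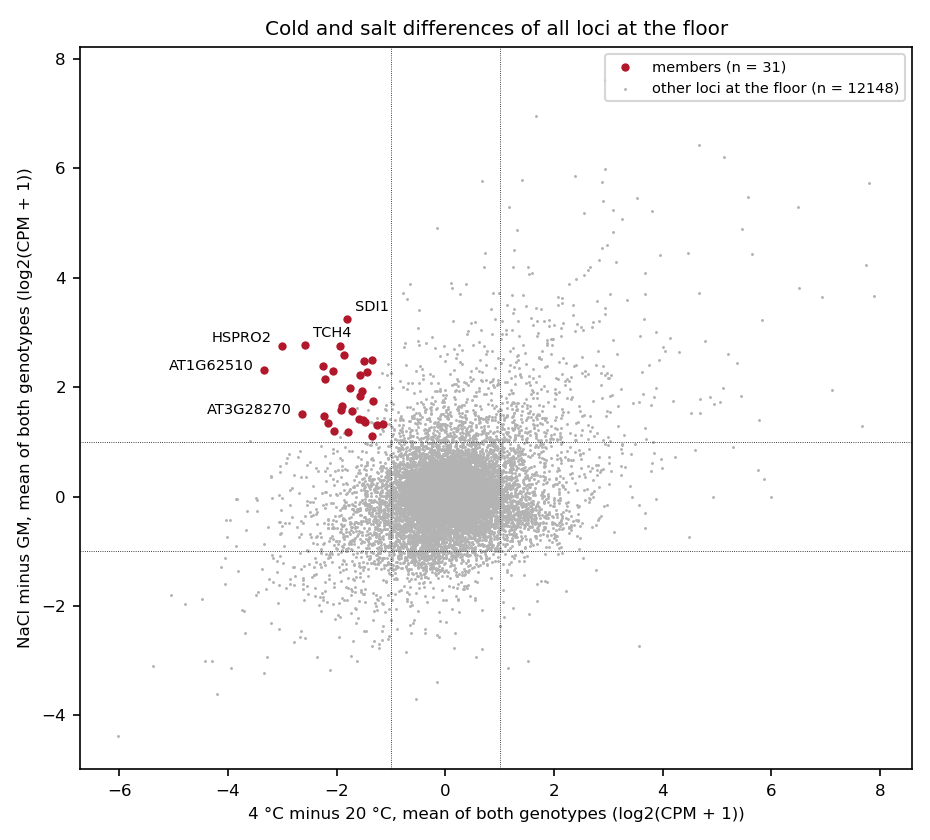
Each point is a nuclear locus at 5 CPM or more in both experiments, with the mean over both genotypes of its 4 °C minus 20 °C difference on the x axis and of its NaCl minus GM difference on the y axis (log2(CPM + 1)). The 31 members, in red, fill the upper left field by the rule that chose them, from points close to the dotted threshold lines at 1 out to HSPRO2, AT1G62510 and SDI1.

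Most members had low levels at 4 °C. At 4 °C the median member had 3.64 CPM in lsm8-1 and 3.55 CPM in Col-0, against 12.6 CPM in lsm8-1 and 15.5 CPM in Col-0 at 20 °C. With NaCl the median was 47.6 CPM in lsm8-1 and 40.9 CPM in Col-0, against 8.76 CPM in lsm8-1 and 9.54 CPM in Col-0 on GM. In 19 members both 4 °C libraries were under 5 CPM, in 9 all 8 libraries were at 5 CPM or more, and 23 never passed 100 CPM. The lowest count of a member in any library was 18 reads. Levels can be set between the experiments for the 25 members with 1 transcript model, since in the salt tables loci with several models appear to lack the reads that their models share. Of those 25, 19 had their lowest level at 4 °C among the 4 conditions in both genotypes and 21 had their highest with NaCl. The rule already sets 4 °C below 20 °C and NaCl above GM in every member, so these counts follow from it in part. Soil at 20 °C and GM plates differ in growth medium and in the level of root markers as well. Per length, in RPKM, the CPM divided by the length in kilobases, LHCB2.2 was the highest member at 20 °C with 4935 RPKM in lsm8-1 and 5482 RPKM in Col-0, and AT4G23670 was the highest with NaCl with 2029 RPKM in lsm8-1 and 2488 RPKM in Col-0.

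**Figure D2:**
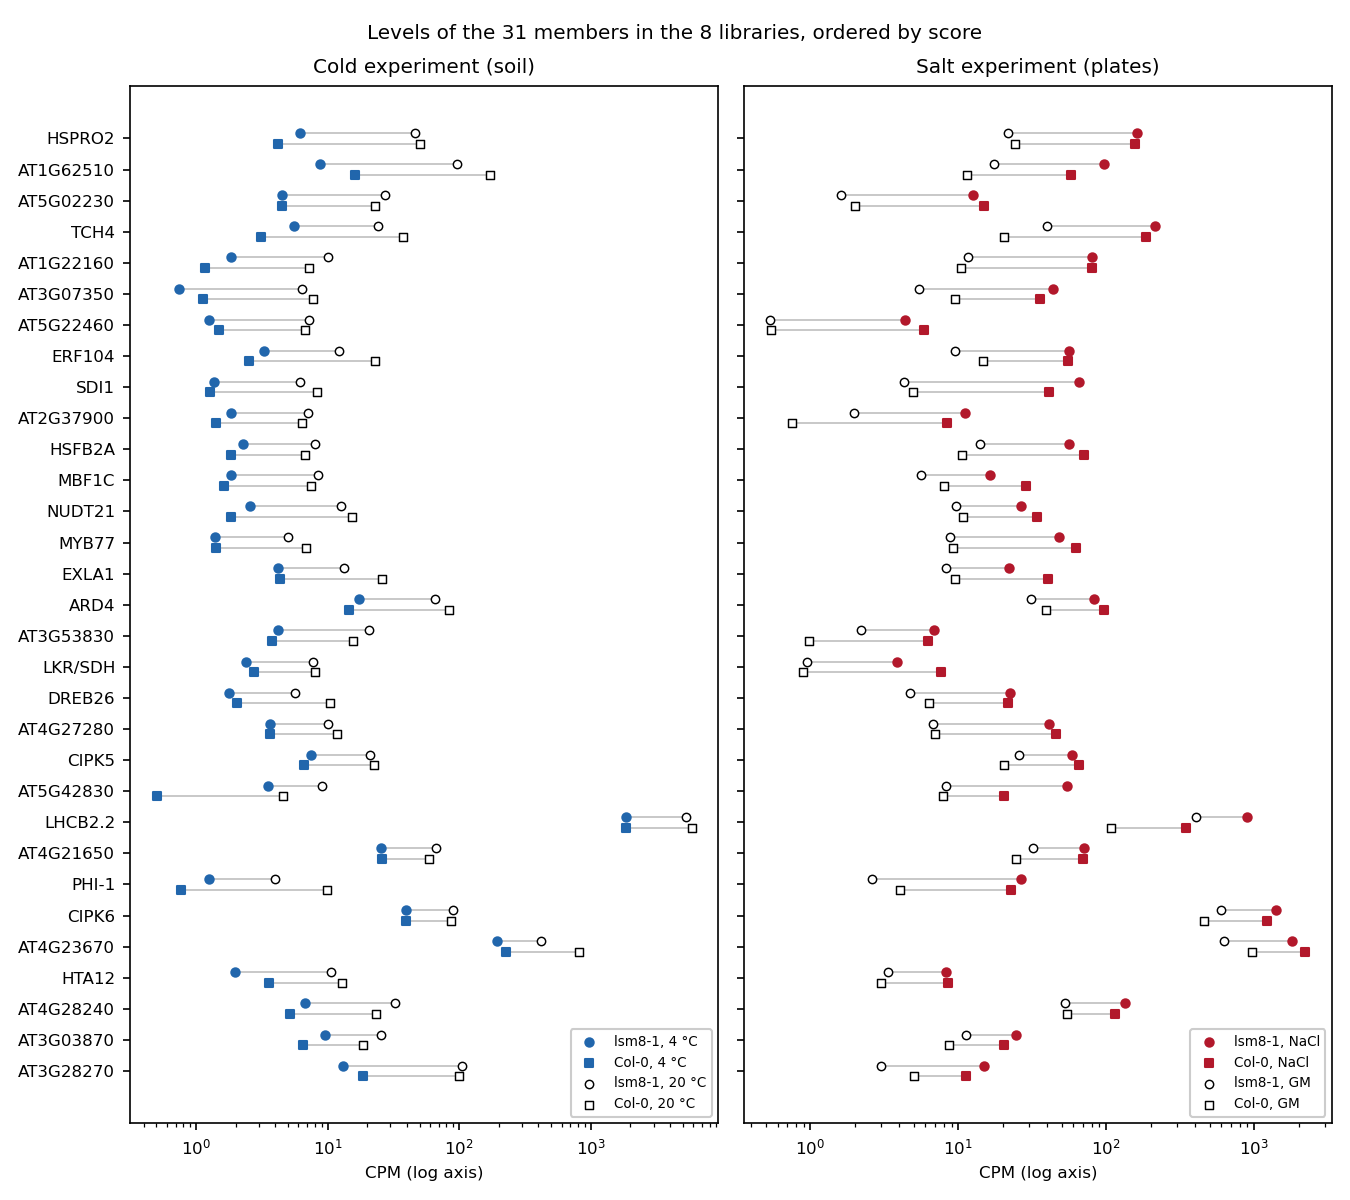
Level of each of the 31 members in the 8 libraries (CPM, log axis), cold experiment on the left and salt experiment on the right, ordered by score from the top. Filled symbols are the stress libraries, open symbols their controls, circles lsm8-1 and squares Col-0, 1 library each. Within each genotype the filled symbol lies left of the open one in the cold panel and right of it in the salt panel.

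The sequence before the gene start is shown for 3 members that contrast in known promoter elements: SDI1, CIPK6 and HSPRO2, of which the last has the highest score. The stretches are the 250 bases before the annotated start in the RefSeq annotation of TAIR10.1, read 5′ to 3′ on the gene's strand, at chr5:19807854-19808103 (minus strand) for SDI1, chr4:15066778-15067027 (plus strand) for CIPK6 and chr2:16702337-16702586 (minus strand) for HSPRO2. Capitals mark ACGTG, the core of ABA-responsive elements, on either strand.
SDI1: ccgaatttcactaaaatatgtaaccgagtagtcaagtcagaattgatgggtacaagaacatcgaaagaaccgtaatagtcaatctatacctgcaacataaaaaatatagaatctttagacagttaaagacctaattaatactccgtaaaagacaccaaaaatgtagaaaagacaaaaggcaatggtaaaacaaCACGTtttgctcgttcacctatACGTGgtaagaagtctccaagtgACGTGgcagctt
CIPK6: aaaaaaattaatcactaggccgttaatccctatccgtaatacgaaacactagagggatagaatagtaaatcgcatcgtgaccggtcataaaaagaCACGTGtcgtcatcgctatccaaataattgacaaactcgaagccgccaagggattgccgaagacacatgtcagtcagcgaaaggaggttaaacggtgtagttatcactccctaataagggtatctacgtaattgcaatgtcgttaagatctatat
HSPRO2: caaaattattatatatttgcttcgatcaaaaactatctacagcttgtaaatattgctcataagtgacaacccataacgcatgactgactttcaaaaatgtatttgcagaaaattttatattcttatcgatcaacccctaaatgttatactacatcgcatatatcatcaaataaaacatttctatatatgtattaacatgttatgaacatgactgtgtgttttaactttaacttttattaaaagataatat
The SDI1 stretch holds ACGTG at 3 places, 57, 35 and 12 bases before the start, the CIPK6 stretch holds the G-box CACGTG, which is ACGTG on both strands at once, and the HSPRO2 stretch holds none.

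A set of 10 short motifs was searched on both strands in the 300 bases from 250 before to 50 after the start of all 31 members and of 27443 genes. ACGTG was present in 11 members (35.5%), against 27.9% of loci at the floor, 29.7% of loci lower at 4 °C, 46.9% of loci higher with NaCl and 26.7% of all promoters. CACGTG, which contains ACGTG, was in 2 members (6.45%), against 9.21%, 10.1%, 18.0% and 7.68% of the same 4 sets. The CBF-site core CCGAC was in 8 members (25.8%), against 16.6% of loci at the floor, 11.2% of loci lower at 4 °C, 19.6% of loci higher with NaCl and 15.0% of all promoters, and 4 of those 8 also held ACGTG. The W-box core TTGAC was in 18 members (58.1%), against 57.0% of loci higher with NaCl and 50.5% of all promoters, and TGACG, which can overlap ACGTG and TTGAC, in 8 (25.8%), against 29.4% of loci higher with NaCl and 23.1% of all promoters. GAANNTTC was in 4 members (12.9%, all promoters 11.6%), and TATCCA and ACTCAT were in 3 each (9.68%, all promoters 16.1% for TATCCA and 14.7% for ACTCAT). The evening element AAATATCT (5.65% of all promoters) and AAACCCTA (6.22%) were in no member's window, and 6 members, HSPRO2 among them, held none of the motifs. These matches are letters in a window and were not tested.

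Transcription regulators made up 5 members. ERF104, an AP2/ERF factor known as a substrate of the kinase MPK6, had 3.27 CPM in lsm8-1 and 2.51 CPM in Col-0 at 4 °C, against 12.3 CPM in lsm8-1 and 23.1 CPM in Col-0 at 20 °C. With NaCl it had 56.4 CPM in lsm8-1 and 55.5 CPM in Col-0, against 9.57 CPM in lsm8-1 and 14.6 CPM in Col-0 on GM. Both 4 °C libraries were below both 20 °C libraries and both NaCl libraries above both GM libraries, with the smaller cold difference in lsm8-1. DREB26, an AP2/ERF factor of the DREB subfamily, differed by -1.24 in lsm8-1 and -1.91 in Col-0 in the cold, and by 2.03 in lsm8-1 and 1.63 in Col-0 in salt. MYB77, an R2R3 MYB factor known in auxin responses, had 1.39 CPM in lsm8-1 and 1.42 CPM in Col-0 at 4 °C, against 4.97 CPM in lsm8-1 and 6.79 CPM in Col-0 at 20 °C. With NaCl it had 47.6 CPM in lsm8-1 and 62.3 CPM in Col-0, against 8.76 CPM in lsm8-1 and 9.24 CPM in Col-0 on GM, the lowest 4 libraries all being those of the cold experiment. The last 2 regulators are heat-shock genes. HSFB2A, a class B heat shock factor, which lacks the activation domain of class A, had 2.29 CPM in lsm8-1 and 1.85 CPM in Col-0 at 4 °C, against 8.02 CPM in lsm8-1 and 6.68 CPM in Col-0 at 20 °C, and 56.3 CPM in lsm8-1 and 71.1 CPM in Col-0 with NaCl, against 14.1 CPM in lsm8-1 and 10.6 CPM in Col-0 on GM. MBF1C, a transcriptional coactivator known in heat tolerance, had 1.83 CPM in lsm8-1 and 1.64 CPM in Col-0 at 4 °C, against 8.39 CPM in lsm8-1 and 7.52 CPM in Col-0 at 20 °C. Its 2 models summed to 16.4 CPM in lsm8-1 and 28.6 CPM in Col-0 with NaCl, against 5.57 CPM in lsm8-1 and 8.04 CPM in Col-0 on GM, and MBF1C overlaps genes on the opposite strand, whose reads could not be told apart from its own without strand.

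Calcium signalling contributed 3 members. CIPK6, a CBL-interacting protein kinase that with CBL4 is known to move the potassium channel AKT2 to the plasma membrane, had 39.7 CPM in lsm8-1 and 39.1 CPM in Col-0 at 4 °C, against 89.8 CPM in lsm8-1 and 85.9 CPM in Col-0 at 20 °C. With NaCl it had 1409 CPM in lsm8-1 and 1219 CPM in Col-0, against 598 CPM in lsm8-1 and 461 CPM in Col-0 on GM, so that even the GM libraries were above all 4 soil libraries. CIPK5, a kinase of the same family, differed by -1.38 in lsm8-1 and -1.64 in Col-0 in the cold and by 1.17 in lsm8-1 and 1.64 in Col-0 in salt. AT4G27280, annotated as an EF-hand calcium-binding protein, had 3.64 CPM in lsm8-1 and 3.64 CPM in Col-0 at 4 °C, against 9.98 CPM in lsm8-1 and 11.7 CPM in Col-0 at 20 °C, and 40.8 CPM in lsm8-1 and 45.4 CPM in Col-0 with NaCl, against 6.70 CPM in lsm8-1 and 6.97 CPM in Col-0 on GM. The 4 conditions did not overlap, with 4 °C lowest, then GM, 20 °C and NaCl.

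Cell wall and surface genes included TCH4, AT1G62510, EXLA1 and PHI-1. TCH4 (XTH22), a xyloglucan endotransglucosylase named for its response to touch, had 5.58 CPM in lsm8-1 and 3.12 CPM in Col-0 at 4 °C, against 24.3 CPM in lsm8-1 and 37.7 CPM in Col-0 at 20 °C, a ratio of 0.230 in lsm8-1 (95% Clopper-Pearson interval 0.200 to 0.264) and 0.0828 in Col-0 (95% interval 0.0693 to 0.0982). With NaCl it had 214 CPM in lsm8-1 and 187 CPM in Col-0, against 39.7 CPM in lsm8-1 and 20.5 CPM in Col-0 on GM, a ratio of 5.40 in lsm8-1 (95% Clopper-Pearson interval 5.09 to 5.73) and 9.11 in Col-0 (95% interval 8.42 to 9.87). The 20 °C and GM libraries overlapped, with both 4 °C libraries below them and both NaCl libraries above them, and both differences were larger in Col-0 than in lsm8-1. AT1G62510, annotated in the lipid-transfer and seed storage 2S albumin family, had 8.70 CPM in lsm8-1 and 16.2 CPM in Col-0 at 4 °C, against 96.7 CPM in lsm8-1 and 173 CPM in Col-0 at 20 °C. With NaCl it had 96.0 CPM in lsm8-1 and 57.6 CPM in Col-0, against 17.5 CPM in lsm8-1 and 11.5 CPM in Col-0 on GM. The 4 °C and GM libraries overlapped, the 20 °C libraries were the highest of all, and a gene on the opposite strand overlaps it. EXLA1, an expansin-like gene, differed by -1.46 in lsm8-1 and -2.32 in Col-0 in the cold and by 1.31 in lsm8-1 and 1.98 in Col-0 in salt, and also overlaps an opposite-strand gene. PHI-1, named for its tobacco relative induced by phosphate, had 1.26 CPM in lsm8-1 and 0.763 CPM in Col-0 at 4 °C, against 3.95 CPM in lsm8-1 and 9.80 CPM in Col-0 at 20 °C, and 26.5 CPM in lsm8-1 and 22.6 CPM in Col-0 with NaCl, against 2.59 CPM in lsm8-1 and 4.01 CPM in Col-0 on GM.

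Defence and nutrient genes held the members with the highest score and the largest salt difference. HSPRO2, a relative of the sugar beet nematode resistance gene that is known to bind the energy-sensing kinase SnRK1, had 6.21 CPM in lsm8-1 and 4.21 CPM in Col-0 at 4 °C, against 46.0 CPM in lsm8-1 and 50.3 CPM in Col-0 at 20 °C, a ratio of 0.135 in lsm8-1 (95% Clopper-Pearson interval 0.119 to 0.153) and 0.0836 in Col-0 (95% interval 0.0718 to 0.0969). With NaCl it had 162 CPM in lsm8-1 and 155 CPM in Col-0, against 21.8 CPM in lsm8-1 and 24.1 CPM in Col-0 on GM, a ratio of 7.45 in lsm8-1 (95% Clopper-Pearson interval 6.90 to 8.06) and 6.45 in Col-0 (95% interval 5.98 to 6.95). The 4 conditions lay apart in the same order in both genotypes, 4 °C lowest, then GM, 20 °C and NaCl. SDI1, a repressor of glucosinolate synthesis named for its induction by sulfur deficiency, had 1.37 CPM in lsm8-1 and 1.29 CPM in Col-0 at 4 °C, against 6.15 CPM in lsm8-1 and 8.31 CPM in Col-0 at 20 °C. With NaCl it had 65.8 CPM in lsm8-1 and 40.9 CPM in Col-0, against 4.29 CPM in lsm8-1 and 4.96 CPM in Col-0 on GM, a ratio of 15.3 in lsm8-1 (95% Clopper-Pearson interval 12.9 to 18.3) and 8.24 in Col-0 (95% interval 7.01 to 9.73). Its NaCl difference in lsm8-1, 3.66, was the largest salt difference of any member. AT4G28240, annotated in a wound-responsive family, had 6.67 CPM in lsm8-1 and 5.19 CPM in Col-0 at 4 °C, against 32.4 CPM in lsm8-1 and 23.4 CPM in Col-0 at 20 °C, and 134 CPM in lsm8-1 and 115 CPM in Col-0 with NaCl, against 53.0 CPM in lsm8-1 and 54.4 CPM in Col-0 on GM, with a neighbour overlapping it on the same strand.

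Metabolic members spanned amino acid, nucleotide and polymer turnover. LKR/SDH, the bifunctional enzyme of the first steps of lysine breakdown, had 2.38 CPM in lsm8-1 and 2.75 CPM in Col-0 at 4 °C, against 7.78 CPM in lsm8-1 and 8.01 CPM in Col-0 at 20 °C. Its 3 models summed to 3.88 CPM in lsm8-1 and 7.63 CPM in Col-0 with NaCl, against 0.954 CPM in lsm8-1 and 0.897 CPM in Col-0 on GM, and each of the 3 was higher with NaCl in both genotypes. ARD4, of the acireductone dioxygenase family of methionine salvage, had 17.37 CPM in lsm8-1 and 14.7 CPM in Col-0 at 4 °C, against 65.8 CPM in lsm8-1 and 83.6 CPM in Col-0 at 20 °C, and 83.1 CPM in lsm8-1 and 96.5 CPM in Col-0 with NaCl, against 30.9 CPM in lsm8-1 and 38.9 CPM in Col-0 on GM. The nudix hydrolase NUDT21 differed by -1.93 in lsm8-1 and -2.53 in Col-0 in the cold and by 1.37 in lsm8-1 and 1.58 in Col-0 in salt. AT5G02230, a haloacid dehalogenase-like hydrolase with 2 models, had 4.51 CPM in lsm8-1 and 4.47 CPM in Col-0 at 4 °C, against 27.2 CPM in lsm8-1 and 23.1 CPM in Col-0 at 20 °C, and 12.6 CPM in lsm8-1 and 14.9 CPM in Col-0 with NaCl, against 1.61 CPM in lsm8-1 and 2.0 CPM in Col-0 on GM. AT5G22460, an alpha/beta hydrolase with 2 models and a neighbour that overlaps it on the same strand, had 1.26 CPM in lsm8-1 and 1.48 CPM in Col-0 at 4 °C, against 7.24 CPM in lsm8-1 and 6.75 CPM in Col-0 at 20 °C, and 4.35 CPM in lsm8-1 and 5.89 CPM in Col-0 with NaCl, against 0.536 CPM in lsm8-1 and 0.538 CPM in Col-0 on GM. The transporter AT2G37900 of the major facilitator superfamily had 1.85 CPM in lsm8-1 and 1.42 CPM in Col-0 at 4 °C, against 7.13 CPM in lsm8-1 and 6.41 CPM in Col-0 at 20 °C, and 11.1 CPM in lsm8-1 and 8.33 CPM in Col-0 with NaCl, against 1.97 CPM in lsm8-1 and 0.747 CPM in Col-0 on GM. The subtilisin-like protease AT4G21650 differed by -1.35 in lsm8-1 and -1.17 in Col-0 in the cold and by 1.13 in lsm8-1 and 1.48 in Col-0 in salt, and 4.28% of its 50-base windows recur in neighbouring genes of its family.

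The chloroplast and chromatin each had 1 member of known role. LHCB2.2, a chlorophyll-binding protein of the light-harvesting complex of photosystem II, had 1848 CPM in lsm8-1 and 1851 CPM in Col-0 at 4 °C, against 5246 CPM in lsm8-1 and 5827 CPM in Col-0 at 20 °C. With NaCl it had 893 CPM in lsm8-1 and 347 CPM in Col-0, against 401 CPM in lsm8-1 and 107 CPM in Col-0 on GM, a ratio of 2.22 in lsm8-1 (95% Clopper-Pearson interval 2.18 to 2.27) and 3.23 in Col-0 (95% interval 3.11 to 3.36). The lsm8-1 GM library, 401 CPM, was above the Col-0 NaCl library, 347 CPM, so that the salt and control levels overlapped between genotypes and not within them. Of its 50-base windows 25.9% recur in LHCB2.1, so reads can be shared between these copies. HTA12, a histone H2A of the H2A.W type found in heterochromatin, had 1.96 CPM in lsm8-1 and 3.55 CPM in Col-0 at 4 °C, against 10.7 CPM in lsm8-1 and 12.8 CPM in Col-0 at 20 °C, and 8.29 CPM in lsm8-1 and 8.51 CPM in Col-0 with NaCl, against 3.37 CPM in lsm8-1 and 2.99 CPM in Col-0 on GM. An opposite-strand gene overlaps it.

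The other members are described here by annotation alone. AT4G23670, of the polyketide cyclase and lipid transport family, had 193 CPM in lsm8-1 and 228 CPM in Col-0 at 4 °C, against 418 CPM in lsm8-1 and 811 CPM in Col-0 at 20 °C, and 1806 CPM in lsm8-1 and 2215 CPM in Col-0 with NaCl, against 627 CPM in lsm8-1 and 967 CPM in Col-0 on GM. AT1G22160 and AT3G07350 are annotated in the DUF581 and DUF506 families (DUF, a name given to domains of unknown function). AT1G22160 had 80.0 CPM in lsm8-1 and 80.3 CPM in Col-0 with NaCl, against 11.6 CPM in lsm8-1 and 10.4 CPM in Col-0 on GM, and 1.85 CPM in lsm8-1 and 1.18 CPM in Col-0 at 4 °C, against 10.0 CPM in lsm8-1 and 7.27 CPM in Col-0 at 20 °C. AT3G07350 had 0.741 CPM in lsm8-1 and 1.13 CPM in Col-0 at 4 °C, against 6.37 CPM in lsm8-1 and 7.74 CPM in Col-0 at 20 °C, and per length was the lowest member in lsm8-1 at 4 °C with 0.560 RPKM. With NaCl it had 43.9 CPM in lsm8-1 and 35.8 CPM in Col-0, against 5.45 CPM in lsm8-1 and 9.54 CPM in Col-0 on GM, so that 20 °C and GM overlapped. AT5G42830, an acyltransferase of the HXXXD type, was per length the lowest member in Col-0 at 4 °C, with 0.342 RPKM. AT3G53830, annotated in the RCC1 family of chromosome condensation regulators, was highest at 20 °C, where it had 20.6 CPM in lsm8-1 and 15.5 CPM in Col-0, with 6.82 CPM in lsm8-1 and 6.27 CPM in Col-0 with NaCl. CIPK5, PHI-1, AT4G21650 and HTA12 were named for their roles after their values were seen, and the other members by the rule for named genes.

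At the threshold, the members just inside were AT3G28270, AT3G03870 and AT4G28240, with scores of 1.03, 1.06 and 1.07. AT3G28270, of the DUF677 family, had 13.0 CPM in lsm8-1 and 18.7 CPM in Col-0 at 4 °C, against 106 CPM in lsm8-1 and 99.3 CPM in Col-0 at 20 °C, and 14.8 CPM in lsm8-1 and 11.3 CPM in Col-0 with NaCl, against 3.01 CPM in lsm8-1 and 4.99 CPM in Col-0 on GM, and both of its models were higher with NaCl in both genotypes. AT3G03870, an uncharacterized gene, had 24.6 CPM in lsm8-1 and 20.5 CPM in Col-0 with NaCl, against 11.3 CPM in lsm8-1 and 8.70 CPM in Col-0 on GM. Just outside were AT5G60650, AT1G04770 and SKIP1, which is known to bind SKP1, with scores of 0.997, 0.985 and 0.983. AT5G60650, a gene of unknown role, was kept out by Col-0 in the cold, where it had 3.10 CPM at 4 °C and 7.18 CPM at 20 °C. AT1G04770, whose protein has tetratricopeptide repeats as SDI1 has, had 4.29 CPM in lsm8-1 and 4.69 CPM in Col-0 at 4 °C, against 10.1 CPM in lsm8-1 and 12.7 CPM in Col-0 at 20 °C, and 70.2 CPM in lsm8-1 and 81.3 CPM in Col-0 with NaCl, against 24.8 CPM in lsm8-1 and 40.6 CPM in Col-0 on GM. Taken in 1 genotype alone, a count added after seeing the data, the rule was met by 59 loci in lsm8-1 and 64 in Col-0. Of the 28 loci that passed in lsm8-1 only, 28 had the same signs in Col-0, and of the 33 that passed in Col-0 only, 28 had the same signs in lsm8-1. The share of all loci with signs alike in both genotypes was not counted, so these numbers are a description only.

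Related genes of the members, picked by family name after values were seen, often had other patterns. All 3 LHCB2 genes reached the floor, and LHCB2.1 differed by -0.82 in lsm8-1 and -0.76 in Col-0 in the cold and by 1.29 in lsm8-1 and 1.54 in Col-0 in salt, just short of the rule in the cold. LHCB2.3 differed by -3.05 in lsm8-1 and -2.52 in Col-0 in the cold, but by 0.37 in lsm8-1 and 0.40 in Col-0 in salt. MYB44, of the same MYB subgroup as MYB77, was higher in both stresses, by 1.37 in lsm8-1 and 1.27 in Col-0 at 4 °C and by 1.81 in lsm8-1 and 1.60 in Col-0 with NaCl. MYB73 was level in the cold, with 0.037 in lsm8-1 and -0.036 in Col-0, and higher with NaCl by 1.32 in lsm8-1 and 1.04 in Col-0. MYB70, also of that subgroup, differed by -1.29 in lsm8-1 and -1.60 in Col-0 in the cold. Its salt differences were 0.41 in lsm8-1 and -0.31 in Col-0. HSFB2B had the 4 signs of the members, with -0.69 in lsm8-1 and -0.45 in Col-0 in the cold. In salt it differed by 1.32 in lsm8-1 and 1.54 in Col-0. HSFB4 differed by -0.83 in lsm8-1 and 0.080 in Col-0 in the cold and was level in salt. EXLA2 differed by 0.42 in lsm8-1 and 0.073 in Col-0 in the cold and by 1.62 in lsm8-1 and 1.71 in Col-0 in salt. Of 14 CIPK genes at the floor, 2 passed the cold threshold downward, both of them members, while 6 passed the salt threshold upward and none downward. Of 14 XTH genes, 7 were lower at 4 °C in both genotypes, and 1, TCH4, was higher with NaCl while 4 were lower. A pair of relatives had the 4 signs of the members and passed each threshold but missed the floor of 5 CPM in the cold experiment. XTH23 had 0.480 CPM in lsm8-1 and 0.392 CPM in Col-0 at 4 °C, against 2.31 CPM in lsm8-1 and 2.97 CPM in Col-0 at 20 °C, and 175 CPM in lsm8-1 and 144 CPM in Col-0 with NaCl, against 5.04 CPM in lsm8-1 and 8.37 CPM in Col-0 on GM. ERF105, an AP2/ERF factor close to ERF104, had 0.697 CPM in lsm8-1 and 0.392 CPM in Col-0 at 4 °C, against 2.99 CPM in lsm8-1 and 3.98 CPM in Col-0 at 20 °C, and 11.1 CPM in lsm8-1 and 18.8 CPM in Col-0 with NaCl, against 1.88 CPM in lsm8-1 and 1.70 CPM in Col-0 on GM. MBF1A and MBF1B, the other coactivators of the MBF1 family, were higher at 4 °C by 0.52 to 0.76 and differed with NaCl by -0.045 to 0.39.

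**Figure D3:**
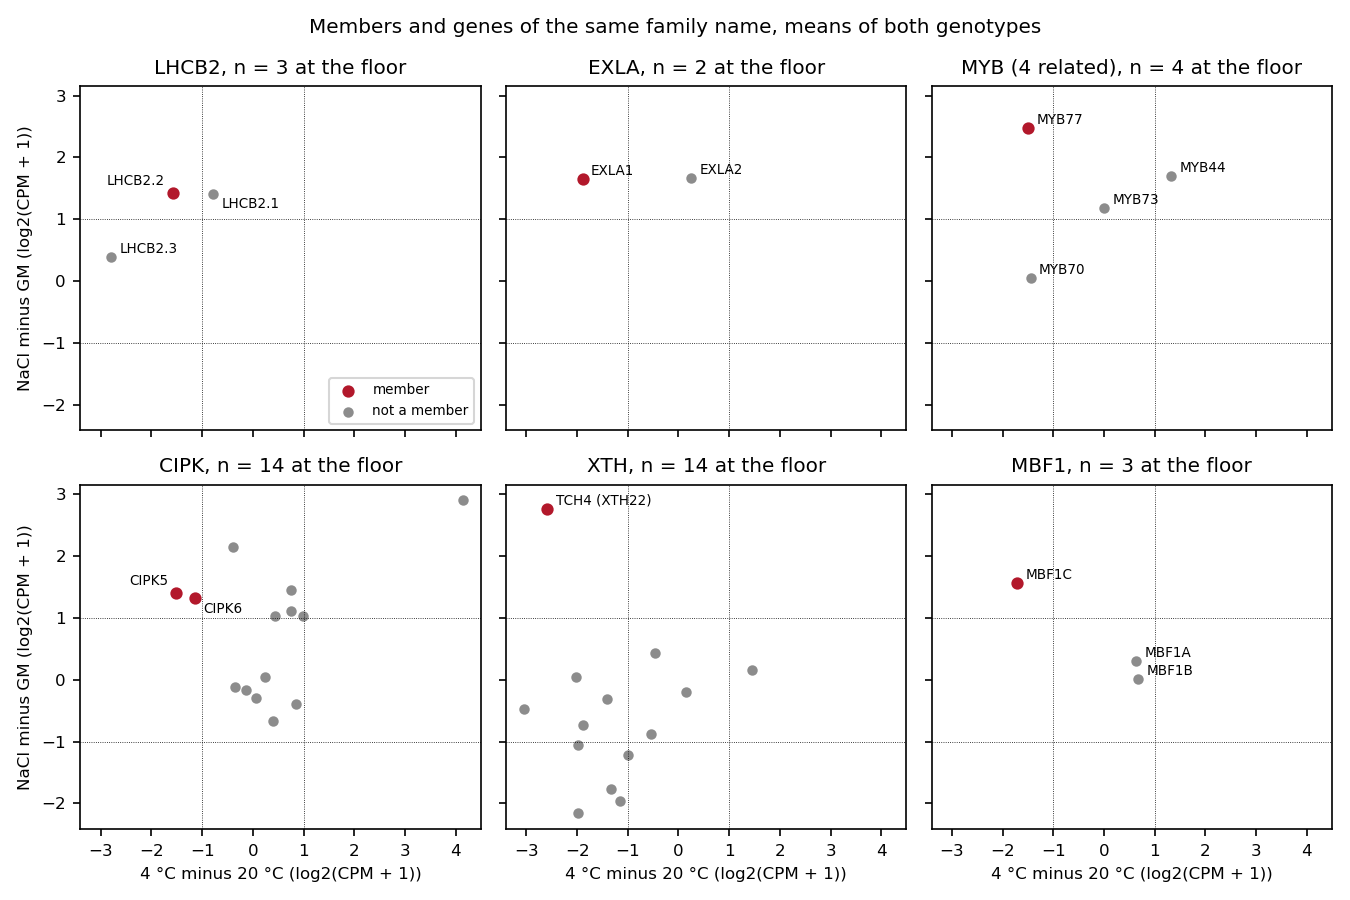
Cold difference (x axis) against salt difference (y axis), each the mean of both genotypes on the log2(CPM + 1) scale, for members (red) and genes of the same family name (grey) at the floor, which leaves out XTH23. Dotted lines mark a difference of 1 in size. The family of ERF104 and ERF105 is among those not drawn. Relatives at the floor lie outside the upper left field by the rule that chose the members: LHCB2.3 below it, EXLA2 and MYB44 to its right, and most XTH genes below 0 on the salt axis.

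Members were also counted in gene lists of known function. They are 0.255% of all 12179 loci at the floor, so finding none in a short list says little. The counts by stress stand beside shares of all 12179 loci of 10.0% higher and 6.68% lower at 4 °C and of 6.42% higher and 4.15% lower with NaCl, in both genotypes. Of 25 ABA and osmotic stress genes at the floor, 20 were higher at 4 °C and 24 higher with NaCl in both genotypes, all 20 being higher in both, and none was a member. The list medians, as means of both genotypes, were 2.09 in the cold and 3.65 in salt, against 0.072 and 0.028 over all loci at the floor. Of 9 heat shock and chaperone genes, 5 were higher and 2 lower at 4 °C, and the 2 lower ones were the members HSFB2A and MBF1C, while 5 were higher with NaCl. DREB2A, a factor known in drought and heat, was higher in both stresses, by 3.36 in lsm8-1 and 3.95 in Col-0 at 4 °C and by 2.75 in lsm8-1 and 3.74 in Col-0 with NaCl. Of 14 amino acid breakdown genes, 2 were lower and 2 higher at 4 °C and 7 were higher with NaCl. The 2 lower ones were the member LKR/SDH and ERD5, the proline dehydrogenase of mitochondria, and ERD5 differed with NaCl by -0.55 in lsm8-1 and -0.39 in Col-0. Of 4 sulfur and phosphate starvation genes, SDI1 was the one lower at 4 °C, 1 was higher there, and 3 were higher with NaCl. LSU2, another gene induced by sulfur deficiency, differed by -0.80 in lsm8-1 and -0.079 in Col-0 in the cold and by 2.11 in lsm8-1 and 1.35 in Col-0 in salt.

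The other lists held no member, which says little for lists this short with members at 0.255% of all loci at the floor. Of 19 sugar starvation and dark-induced genes, which SnRK1 is known to control, 8 were lower and 3 higher at 4 °C, and with NaCl 2 were lower and none higher. Of 12 circadian clock genes 7 were higher and 1 lower at 4 °C, and none passed with NaCl. Of 16 jasmonate genes 2 were higher at 4 °C and 6 with NaCl. Of 6 auxin and shade genes 3 were lower at 4 °C and 1 was higher with NaCl. Of 5 ethylene genes 1 was lower at 4 °C and 1 higher with NaCl, and of 10 autophagy genes 2 were lower at 4 °C and none passed with NaCl. The lists were described by these counts beside the shares of all loci and not tested.

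A property that the rule did not use was gene structure in the TAIR10.1 annotation. Of the members, 11 of 31 (35.5%) consist of 1 exon, against 11.8% of the 12173 annotated loci at the floor, 20.6% of those lower at 4 °C and 22.4% of those higher with NaCl. The median number of exons was 2 in members, against 5 at the floor and 3 in each stress set. More than 5 exons were found in 4 members (12.9%), LKR/SDH with 25 and AT3G53830 with 12 the most of them. The shares were 47.2% of loci at the floor, 29.7% of those lower at 4 °C and 31.3% of those higher with NaCl. The median span of the gene was 1837 bases in members, against 2532 bases at the floor. It was 2099 bases in loci lower at 4 °C and 2168.5 bases in loci higher with NaCl. Members lay on all 5 nuclear chromosomes, with 5, 3, 7, 6 and 10 on chromosomes 1 to 5. Several transcript models were listed for 19.4% of members and for 20.3% of loci at the floor. These shares were not tested, and the single-exon members include CIPK5, CIPK6, HSPRO2, ERF104, DREB26, MYB77 and PHI-1.

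The comparison of lsm8-1 with Col-0 was not used by the rule and was tested. All 8 libraries entered an additive model of condition and genotype, fitted by edgeR's quasi-likelihood method, with p-values adjusted by the Benjamini-Hochberg method over 20228 genes. It called 221 genes (1.09%), of which 153 were higher and 68 lower in lsm8-1. None of the 31 members was called. At an unadjusted p under 0.05 there were 6 members (19.4%), against 18.6% of all genes tested, and DESeq2 called 2 members (6.45%), against 6.95% of all genes tested. With no replicate within a condition, the residual spread contains genotype-specific responses as well as noise.

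AT5G42830 had the largest fitted genotype effect among the members. It had 3.51 CPM in lsm8-1 and 0.502 CPM in Col-0 at 4 °C, 9.07 CPM in lsm8-1 and 4.60 CPM in Col-0 at 20 °C, 54.2 CPM in lsm8-1 and 20.3 CPM in Col-0 with NaCl and 8.19 CPM in lsm8-1 and 7.92 CPM in Col-0 on GM. The lsm8-1 library was the higher of all 4 pairs, by a ratio of 7.0 (95% interval 4.50 to 11.4) at 4 °C, 1.97 (1.66 to 2.35) at 20 °C, 2.67 (2.44 to 2.92) with NaCl and 1.03 (0.871 to 1.23) on GM, the last within counting error. Its fitted effect was 1.22 on the log2 scale (SE 0.34, edgeR adjusted p = 0.134), and DESeq2 gave 1.28 (SE 0.38, adjusted p = 0.0154). Over the 9 alternatives its adjusted p lay between 0.00313 and 0.295.

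AT3G03870 had the lowest p among the members. It had 9.59 CPM in lsm8-1 and 6.54 CPM in Col-0 at 4 °C, 25.4 CPM in lsm8-1 and 18.5 CPM in Col-0 at 20 °C, 24.6 CPM in lsm8-1 and 20.5 CPM in Col-0 with NaCl and 11.3 CPM in lsm8-1 and 8.70 CPM in Col-0 on GM, and lsm8-1 was the higher of each pair. Its fitted effect was 0.44 (SE 0.10, edgeR adjusted p = 0.0967), against DESeq2's 0.42 (SE 0.12, adjusted p = 0.00932), with adjusted p between 0.00932 and 0.276 over the alternatives. AT4G23670 was lower in lsm8-1 in all 4 pairs, with a fitted effect of -0.50 (SE 0.16, edgeR adjusted p = 0.174). EXLA1 was also lower in lsm8-1 in all 4 pairs, with -0.51 (SE 0.19, edgeR adjusted p = 0.208). Its lsm8-1 to Col-0 ratio was within counting error at 4 °C (0.970, interval 0.792 to 1.19) and on GM (0.869, interval 0.737 to 1.02). The sign for EXLA1 was therefore not resolved in those pairs. AT4G23670 and EXLA1 were both called in a fit of the cold experiment alone, which has 1 residual degree of freedom. That fit called 4 members and 8.55% of all genes tested. It gave -0.70 (edgeR adjusted p = 0.0165) for AT4G23670 and -0.66 (edgeR adjusted p = 0.0443) for EXLA1. In that experiment the lsm8-1 minus Col-0 difference of EXLA1 was -0.036 at 4 °C and -0.89 at 20 °C. A fit of the salt experiment alone called 1 member, LHCB2.2, and 0.949% of all genes tested. Over all alternatives the adjusted p lay between 0.0165 and 0.345 for AT4G23670 and between 0.0443 and 0.471 for EXLA1. The lsm8-1 library was the higher of all 4 pairs in 5 members (16.1%, all loci at the floor 12.8%) and the lower in 4 (12.9%, all loci 13.3%).

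Across the members, the median lsm8-1 minus Col-0 difference was 0.054 at 4 °C, -0.13 at 20 °C, 0.023 with NaCl and -0.038 on GM, against 0.063, 0.14, -0.13 and -0.11 over all loci at the floor. With TMM scaling the members' medians were 0.033 at 4 °C, -0.22 at 20 °C, 0.15 with NaCl and 0.064 on GM. The same scaling moved the median cold difference of all loci in Col-0 to 0.0028. A difference of 1 or more in size was met by 1 member at 4 °C, 1 at 20 °C, 2 with NaCl and 1 on GM, while 2.0%, 1.17%, 2.67% and 2.13% of all loci met it in the same conditions. The response itself, as the difference in lsm8-1 minus that in Col-0, had a median over members of 0.10 in the cold and -0.15 in salt, against -0.075 and -0.013 over all loci. In the cold 3 members differed in response by 1 or more, namely PHI-1 (1.49), TCH4 (1.29) and ERF104 (1.14), each with the smaller cold difference in lsm8-1, while 1.15% of all loci met that size. In salt AT5G42830 was the one such member, with a response larger by 1.33 in lsm8-1, while 2.14% of all loci met it. The cold and salt differences chose the members and are large in them by rule, so the shares of all loci are not a like baseline. With 1 library per group these response differences were not tested.

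**Figure D4:**
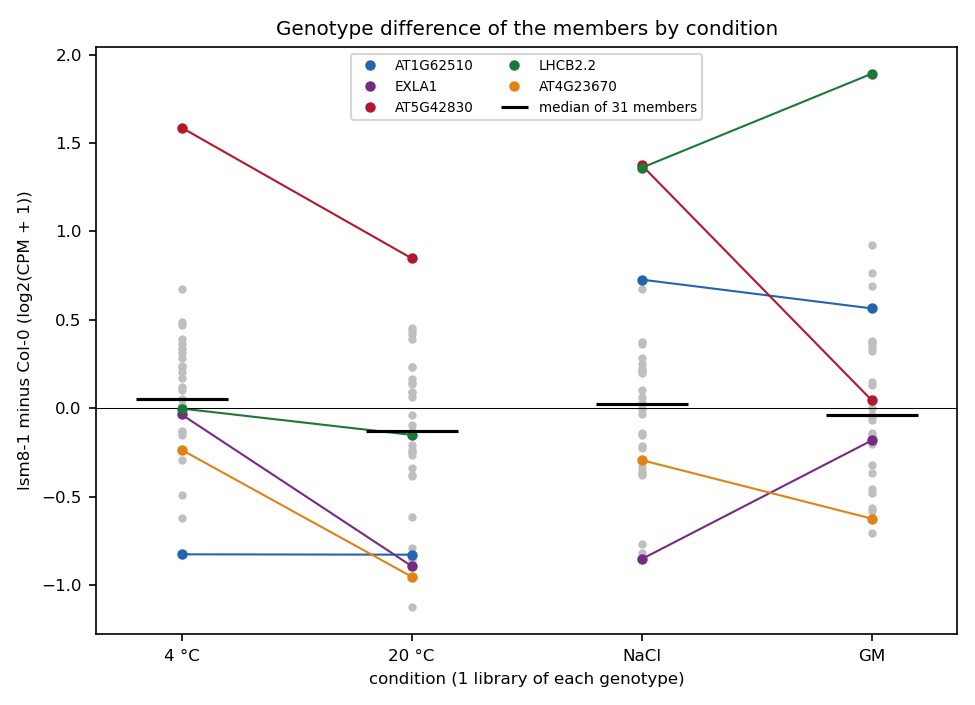
Difference of lsm8-1 minus Col-0 (log2(CPM + 1)) for each of the 31 members in the 4 conditions, 1 library of each genotype per condition; black bars are medians over the members and 5 members are coloured. AT5G42830 lies above 0 in all conditions and EXLA1 and AT4G23670 below 0, while AT1G62510 lies below 0 in soil and above 0 on plates. LHCB2.2 lies near 0 in soil and at 1.36 with NaCl and 1.89 on GM.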

How the data were processed

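Per the file headers, the deposited tables give for each feature the count of uniquely placed reads, the length of the feature, and the RPKM, which the authors scaled to length and library total. The deposited counts are whole numbers that sum to the total in the header, and features absent from a table count as 0. The genome build was TAIR10, per the submitters' processing notes; aligner, counting tool and strand handling are not stated there or in the labels. The cold tables list genes and the salt tables transcript models, whose counts were summed per locus here. The deposited RPKM was used to set levels between members, for loci with 1 model only on plates.

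CPM are counts divided by the header total, times 1e6. Differences of log2(CPM + 1) between 2 libraries have no test, and their ratios have exact Clopper-Pearson 95% intervals. The genotype effect was fitted to the 8 libraries with edgeR 4.0.16 (R 4.3.3, TMM scaling, a filter of 1 CPM in 2 libraries, 4 conditions plus genotype, 3 residual degrees of freedom), and its SE is the effect divided by the root of the quasi-likelihood F statistic. DESeq2 1.42.0 was an alternative. The script was run on simulated counts with a common dispersion for all genes and a genotype effect equal in all conditions. The real residual spread also contains genotype-specific responses, so that run does not show how the fit performs on these data. The p-values of the fit measure the spread of the genotype difference across conditions, noise included. With 1 library per group they do not measure a spread between replicates. Promoters and exons came from the RefSeq annotation of TAIR10.1, matched by locus; the tables hold no coordinates. All 31 members matched, as did 206 of 213 list entries.

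The members and lists were chosen with earlier results of these data known. Genes were named by rule: the 20 highest scores, members on a list, members called for genotype, the 5 highest in CPM, the 5 with the largest mean genotype difference, and the 3 on either side of the threshold. Alternatives were scaling, pseudocount, floor, threshold, model handling, filter, tool, experiment and leaving out each pair of libraries.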

Additional observations from a re-analysis of the deposited data

Results flagged for a closer look

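In 4 members the lsm8-1 minus Col-0 difference had opposite signs in soil and on plates in every pair (12.9%), against 24.7% of all 12179 loci at the floor. The mean difference on plates minus that in soil was 1.47 for AT1G62510, 1.70 for LHCB2.2, -0.74 for MBF1C and -0.34 for AT5G02230 (log2). For AT1G62510 the differences were -0.83 at 4 °C and -0.83 at 20 °C, against 0.73 with NaCl and 0.56 on GM, and for LHCB2.2 they were close to 0 at 4 °C, -0.15 at 20 °C, 1.36 with NaCl and 1.89 on GM. The lsm8-1 to Col-0 ratio of AT5G02230 was within counting error at 4 °C (1.01, 95% interval 0.828 to 1.23) and on GM (0.803, 0.551 to 1.17), that of MBF1C at 4 °C (1.12, 0.810 to 1.55) and 20 °C (1.12, 0.962 to 1.30), and that of LHCB2.2 at 4 °C (0.998, 0.989 to 1.01), so the sign was not resolved there. In fits of 1 experiment alone, AT1G62510 had an effect of -0.97 in the cold experiment (edgeR adjusted p = 1.65e-04) and 0.80 in the salt experiment (edgeR adjusted p = 0.0623), with an adjusted p of up to 0.932 over all alternatives. LHCB2.2 had -0.18 in the cold experiment (edgeR adjusted p = 0.585) and 1.76 in the salt experiment (edgeR adjusted p = 0.0224), the adjusted p lying between 0.0224 and 0.680 over all alternatives. The differences between soil and plates were not tested, each condition having 1 library per genotype. AT1G62510 and MBF1C overlap genes on the opposite strand, MBF1C and AT5G02230 have more than 1 transcript model, and LHCB2.2 shares sequence with LHCB2.1, which had 757 CPM in lsm8-1 and 344 CPM in Col-0 with NaCl and 310 CPM in lsm8-1 and 118 CPM in Col-0 on GM. The part of these in the differences was not tested.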

How the results depend on the processing

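The 31 members became 13 with a pseudocount of 5, 19 with a floor of 10 CPM and 10 with a threshold of 1.5, since these settings are stricter by construction, and 64 in Col-0 alone and 59 in lsm8-1 alone, the last 2 chosen after seeing the data. They were 36 with TMM scaling (29 of them shared with the 31), 38 with a pseudocount of 0.5, 39 with a floor of 1 CPM, 25 for loci with 1 model and 30 with the highest model of a locus. The median genotype difference on GM, -0.038, turned to 0.064 with TMM scaling. Members called for genotype were 0, and 2 with DESeq2 (6.95% of all genes tested), 4 in the cold experiment alone (8.55%) and 1 in the salt experiment alone (0.949%), while leaving out each pair of libraries gave 0 to 0. The effect of LHCB2.2, 0.80, was -0.18 in the cold experiment alone; the cause was not tested. Of 63 alternatives for the effects of 7 named members, 56 kept direction and call, 6 passed the threshold anew and 1 reversed. In 150 bases before the start, the member shares of CACGTG and ACTCAT were 0 (5.79% and 6.98% of loci at the floor) and that of TTGAC was 29.0% (30.4%). The fit compared lsm8-1 with Col-0 within each condition, condition being a term, and the labels carry no replicate numbers to block on. Depth and 1 library per group limit members with low counts at 4 °C, such as AT5G42830 with 23 reads in Col-0.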
